A study of Sus scrofa with 3 samples.

Results

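The CC chemokines that draw monocytes, eosinophils and lymphocytes were followed by name across the arrays, namely CCL2, CCL3L1, CCL4, CCL5, CCL8, CCL11, CCL19, CCL21, CCL25 and CCL28. They were chosen by gene name, through the array's gene name, its description or its gene identifier. No threshold on a measured value enters that rule, but earlier results of these data were known when the members were chosen. These 10 genes carried 16 of the 43603 gene probes on the porcine array and made up 10 of the 6420 genes that could be named, 5 of them with 1 probe and 5 with more. The cells were PIE, a non-transformed line from the intestinal epithelium of an unsuckled newborn pig, grown for 3 days and then given lactobacilli or medium for 48 h. In the TL2937+ETEC group the lactobacilli were Lactobacillus jensenii TL2937. In the TL2766+ETEC group they were Lactobacillus plantarum TL2766, and the ETEC group received medium without lactobacilli. All 3 groups were then exposed for 12 h to ETEC PAMPs, the microbial molecules of enterotoxigenic Escherichia coli that innate receptors recognise, before RNA was taken. Cells without the ETEC PAMPs are not analysed here, so every level below is one reached in challenged cells. Each group was 1 replicate on 1 single-colour array, so no difference has a replicate check and no p-value is given. All 3 arrays lay on 1 slide, so a group cannot be told apart from its culture or its place on that slide.

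CC chemokines are small secreted proteins that bind to sulphated sugars on cell surfaces and guide leukocytes that carry the matching receptor. Inflammatory members such as CCL2, CCL5 and CCL8 are switched on by NF-kB and by interferon signalling after microbial sensing, whereas CCL19 and CCL21 are best known as lymphoid-tissue signals, and CCL25 and CCL28 as signals of the gut and other mucosae. In the intestinal lining they help to set which leukocytes enter the wall during infection. The roles given here are those described mainly in human and mouse.

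The probes below are shown because the findings rest on how far each one can tell related chemokines apart. All are 60 bases long, printed 5′ to 3′ as the array files give them, and the capitals mark the longest exact run that the probe shares with a probe of another of the 10 genes.
CCL8: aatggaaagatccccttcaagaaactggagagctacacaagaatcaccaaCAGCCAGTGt
CCL11: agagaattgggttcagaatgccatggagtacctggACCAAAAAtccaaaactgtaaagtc
CCL5: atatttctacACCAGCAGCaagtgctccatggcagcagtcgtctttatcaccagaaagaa
CCL3L1: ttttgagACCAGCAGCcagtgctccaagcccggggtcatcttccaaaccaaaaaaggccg
CCL4: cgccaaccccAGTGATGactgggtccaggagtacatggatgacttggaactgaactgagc
CCL21: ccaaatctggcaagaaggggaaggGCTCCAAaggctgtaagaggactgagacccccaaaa
CCL19: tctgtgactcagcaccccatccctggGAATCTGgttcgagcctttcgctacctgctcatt
The longest run shared by probes of different members was 9 bases, carried by CCL5 and CCL3L1 and, with other runs, by CCL8 and CCL3L1 and by CCL5 and a CCL25 probe not printed here. Slid along each other without gaps to the offset with most matches, the CCL5 and CCL3L1 probes shown were identical at 39 bases. This was the highest value among the 113 pairs of probes from different members. No member probe shared a run of 20 bases with any other probe on the array, except the dimmer CCL11 probe. That probe overlapped a probe that carries no gene symbol. Probes were compared only with probes, which can lie at different places in their targets, and not with transcripts. Whether a probe also binds the transcript of a related chemokine was therefore not tested. GC content ran between 35% and 55% with a median of 45%. In RefSeq's Sscrofa11.1 gene order, CCL8, CCL11 and CCL2 are direct neighbours, CCL4 and CCL3L1 are another adjacent pair on that chromosome, with CCL5 a few genes away, and CCL21 and CCL19 lie side by side on another chromosome.

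Levels are given as scaled intensity, the scanner's processed signal divided by the 75th percentile of its array and multiplied by 481, the geometric mean of those percentiles. The percentiles themselves were 503 on the TL2937+ETEC array, 481 on the TL2766+ETEC array and 459 on the ETEC array. Between 60.9% and 62.5% of gene probes were well above background, a call made by the scanner software, and no probe was saturated. Differences are log2 ratios of scaled intensity between 2 arrays, and the ± beside one is the scanner software's own error of that spot pair. A second measure of technical error came from 25 detected probes printed at 5 spots each, whose difference between 2 arrays had a median SD of 0.0785 to 0.0873 over spots. Neither measure covers the spread between cultures, and in RNA of a whole culture fewer cells that make a chemokine and less of it per cell cannot be told apart. A gene was counted as higher or lower when it differed by at least 1.2-fold and its probe was well above background on both arrays, and a gene with several probes was represented by the brightest. The brightness of a probe also depends on its sequence, so a member's level is compared between arrays and not with that of another gene, and sums over marker lists or the words dim and bright describe signal, not transcript amounts.

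The labelled cell type was checked against marker genes. Of 5 epithelial markers on the array, 2, 1 and 2 were well above background on the TL2937+ETEC, TL2766+ETEC and ETEC arrays. EPCAM, with 18 probes, KRT18 and CLDN4 were not well above background on any array. All 7 endothelial markers were on the array, 7, 6 and 7 of them well above background, with summed scaled intensities of 179150 on TL2937+ETEC, 182912 on TL2766+ETEC and 168462 on ETEC. Fibroblast markers summed to 242932, 252563 and 251958 in the same order, nearly all of it VIM. The pan-leukocyte gene PTPRC was not well above background on any array, and the 7 leukocyte markers on the array summed to 764, 802 and 681. The defining epithelial markers were thus at or near background in the libraries labelled epithelial. Endothelial SELP read 15794 on TL2937+ETEC and 15777 on TL2766+ETEC, against 4942 on ETEC, and KDR, TEK, SELP and SELE were at least 1.2-fold higher on each pretreated array than on ETEC. These were 4 of 7 measured on TL2937+ETEC and 4 of 6 on TL2766+ETEC, where 7.29% and 8.13% of all genes were higher. VWF was lower on TL2937+ETEC (-0.55), with signals of 15.5 against 22.7 on ETEC, close to background. The brightest signals of the list, PECAM1 (-0.05 and -0.02) and CDH5 (-0.09 and -0.11), stayed within 1.2-fold on both pretreated arrays. The part of such markers in the chemokine differences was not tested.

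**Figure D1:**
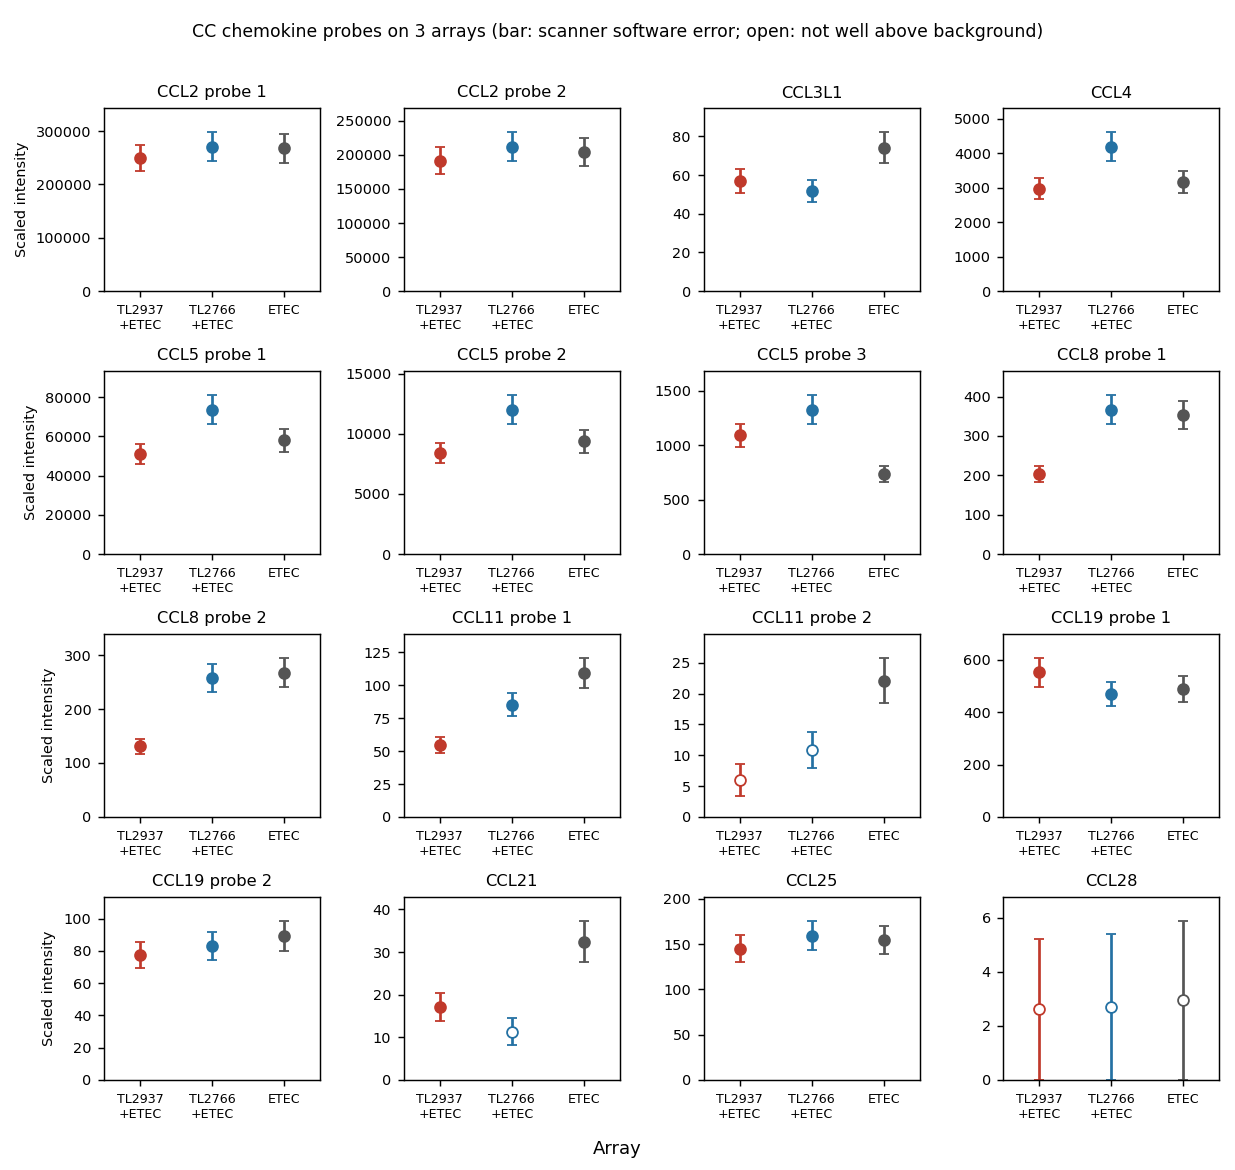
Scaled intensity (linear axis from 0, arbitrary units) of each of the 16 probes on the TL2937+ETEC, TL2766+ETEC and ETEC arrays, 1 array per group. Bars are the scanner software's error, and open points were not well above background. Both CCL8 probes read lowest on TL2937+ETEC, and CCL5 probes 1 and 2 and CCL4 read highest on TL2766+ETEC.

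Of the 10 chemokines, 8 had a probe well above background on all 3 arrays. CCL21 reached that level on the TL2937+ETEC and ETEC arrays but not on TL2766+ETEC, and CCL28 reached it on none.

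TL2937 pretreatment was set against ETEC alone to describe how challenged cells with and without the first Lactobacillus strain differed. CCL8, CCL11 and CCL21 read between 1.74-fold and 1.996-fold lower in cells that had received TL2937, and CCL3L1 read 1.30-fold lower. CCL2, CCL4, CCL5, CCL19 and CCL25 stayed within 1.2-fold, and no member was at least 1.2-fold higher. Thus 4 of the 9 members measured on both arrays were lower, where 12.4% of all 4886 genes measured were lower and 7.29% were higher. The members' median log2 difference was -0.18, beside -0.04 over all genes. No member was 2-fold apart on its brightest probe, a line that 0.143% of genes crossed downward and 0.246% upward.

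Of the lower members, CCL3L1, CCL11 and CCL21, were dim by their mean over all 3 arrays, and CCL8 was not. Among the 1553 genes with a mean not above the median detected signal, 19.1% were at least 1.2-fold lower, and 3 of the 4 members there were. Among the 3333 brighter genes the share was 9.3%, and 1 of 5 members, CCL8, was lower. This split was chosen after the data had been seen.

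TL2766 pretreatment was set against the same ETEC array, so the comparisons are not independent. CCL4 and CCL5, which both draw T cells and monocytes, read 1.33-fold and 1.27-fold higher in cells given TL2766, while CCL3L1 and CCL11 read 1.44-fold and 1.28-fold lower. CCL2, CCL8, CCL19 and CCL25 stayed within 1.2-fold. Of the 8 members measured on both arrays, 2 were thus higher and 2 lower, where 8.13% of all 4861 genes were higher and 8.95% lower. The median difference of these members was 0.03, beside 0.00 over all genes. None of them was 2-fold apart (0.247% of genes were 2-fold lower and 0.329% higher). CCL21, counted as lower on TL2937+ETEC, was left out here because it was not well above background on TL2766+ETEC. Set at that array's lowest detected signal, CCL21 was nominally 2.75-fold below ETEC. By the same split, both lower members were dim: 17.1% of the dimmer genes were lower, with 2 of 3 members, and 5.22% of the brighter genes, with 0 of 5 members.

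The strains were also set against each other directly, on the same pair of pretreated arrays. CCL8, CCL11, CCL5 and CCL4 read lower in TL2937+ETEC than in TL2766+ETEC cells, by 1.80-fold, 1.56-fold, 1.44-fold and 1.41-fold. These were 4 of the 8 members measured on both arrays, where 7.24% of 4900 genes were at least 1.2-fold lower and 4.31% higher. No member counted as higher on TL2937+ETEC. CCL21, not well above background on TL2766+ETEC, was left out of the count and was nominally 1.46-fold higher on TL2937+ETEC. The median difference of the members was -0.32, beside -0.04 over all genes. None was 2-fold apart, where 0.204% of genes were lower by that much and 0.0816% higher. CCL4, CCL5 and CCL8 were 3 of the 5 members with a mean above the median detected signal, where 3.72% of genes were lower, and CCL11 was 1 of 3 among the dimmer genes, where 14.7% were.

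**Figure D2:**
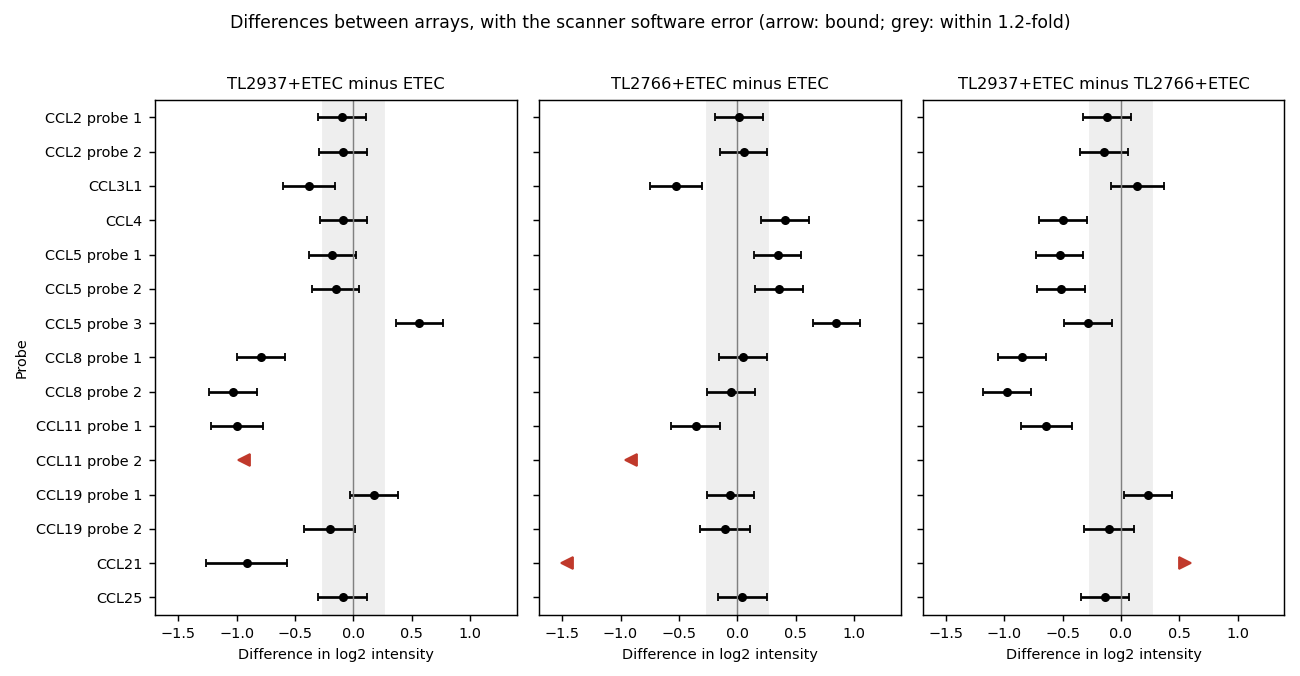
Log2 difference in scaled intensity for 15 probes in the 3 comparisons, 1 array against 1 array. Bars are the scanner software's error, and the grey band spans 1.2-fold either way. Arrows are nominal bounds, without error, where 1 array was not well above background. Both CCL8 probes and CCL11 probe 1 lie left of the band in the outer panels, and CCL5 probe 3 departs from the other CCL5 probes in the left panel.

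Among the monocyte attractants, CCL8, also called MCP-2, showed the widest gap between the strains. Its probe shown above read 204 on TL2937+ETEC and 367 on TL2766+ETEC, against 354 on ETEC. A second probe, further along the array's target sequence, read 131, 258 and 268 in the same order. TL2937+ETEC was the low array on both probes, whereas TL2766+ETEC and ETEC differed by less than the scanner error. The log2 difference of TL2937+ETEC from ETEC was -0.80 ± 0.21 on the first probe and -1.03 ± 0.21 on the second, and the differences from TL2766+ETEC were -0.85 ± 0.21 and -0.98 ± 0.21. On the second probe this was 2.05-fold below ETEC. The probes do not overlap, and they gave one direction and a similar size. With a normexp background correction, CCL8 by its brighter probe differed by -0.67 from ETEC and by -0.67 from TL2766+ETEC.

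CCL2, also called MCP-1, is the main ligand of CCR2 on monocytes and sits in the same gene cluster. It read 249463 on TL2937+ETEC and 270764 on TL2766+ETEC, against 267500 on ETEC, without reaching saturation. Its second probe read 191774, 212208 and 204322. The 3 arrays did not differ beyond the scanner error on either probe, with log2 differences of -0.10 ± 0.20 and -0.09 ± 0.20 for TL2937+ETEC against ETEC and 0.02 ± 0.20 and 0.05 ± 0.20 for TL2766+ETEC against ETEC.

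CCL11, or eotaxin, recruits eosinophils through CCR3 and lies between CCL8 and CCL2 in the pig gene order. Its brighter probe read 54.8 on TL2937+ETEC and 85.4 on TL2766+ETEC, against 109 on ETEC. The 3 arrays stood apart in that order by more than the scanner error at each step. The log2 difference from ETEC was -0.997 ± 0.22 for TL2937+ETEC and -0.36 ± 0.21 for TL2766+ETEC, and the strains differed by -0.64 ± 0.22. The dimmer probe was well above background on the ETEC array alone, at 22.1, against 5.98 on TL2937+ETEC and 10.9 on TL2766+ETEC. Set against the lowest detected signal of each array, this probe was 1.91-fold lower on TL2937+ETEC and 1.88-fold lower on TL2766+ETEC, before scanner error. The unnamed probe that overlaps it in sequence read 19.3 and 15.4 on the pretreated arrays, TL2937+ETEC first, against 27.4 on ETEC, with differences of -0.50 ± 0.33 and -0.83 ± 0.37. These probes lie close to background, and with a normexp background correction the brighter CCL11 probe differed by -0.63, -0.28 and -0.35 in the 3 comparisons.

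Among CCL3L1, CCL4 and CCL5, inflammatory chemokines that draw T cells and monocytes, CCL4 and CCL5 followed one order and CCL3L1 another. CCL4, or MIP-1beta, read 2974 on TL2937+ETEC and 4190 on TL2766+ETEC, against 3157 on ETEC. TL2766+ETEC was the high array, by 0.41 ± 0.20 over ETEC on the log2 scale, and TL2937+ETEC differed from TL2766+ETEC by -0.49 ± 0.20. TL2937+ETEC and ETEC were within the scanner error of each other, at -0.09 ± 0.20.

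CCL5, or RANTES, attracts T cells, monocytes and eosinophils. Its brightest probe read 51129 on TL2937+ETEC and 73664 on TL2766+ETEC, against 57978 on ETEC, and the probe shown above read 8416, 12014 and 9360. Both placed TL2766+ETEC highest, 0.35 ± 0.20 and 0.36 ± 0.20 above ETEC, and TL2937+ETEC lowest, at -0.18 ± 0.20 and -0.15 ± 0.20 against ETEC, which is within the scanner error. The strains differed by -0.53 ± 0.20 and -0.51 ± 0.20. The third probe assigned to CCL5, which the array describes as a liver clone, gave another picture. It read 1091 on TL2937+ETEC and 1329 on TL2766+ETEC, against 738 on ETEC, which made it higher on both pretreated arrays, by 0.56 ± 0.20 and 0.85 ± 0.20. TL2766+ETEC read highest on all 3 CCL5 probes, while the direction of TL2937+ETEC against ETEC depended on the probe. With the mean of all 3 probes in place of the brightest, CCL5 differed by 0.08 for TL2937+ETEC against ETEC and by 0.52 for TL2766+ETEC.

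CCL3L1 is related to the macrophage inflammatory protein CCL3. It read 57.0 on TL2937+ETEC and 51.7 on TL2766+ETEC, against 74.2 on ETEC. Both pretreated arrays lay below ETEC, at -0.38 ± 0.22 and -0.52 ± 0.22, and they did not differ from each other beyond the scanner error (0.14 ± 0.22). With the normexp correction the first 2 values were -0.18 and -0.29.

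The lymphoid-tissue pair CCL19 and CCL21 share the receptor CCR7, which guides dendritic cells and naive T cells. CCL21 read 17.2 on TL2937+ETEC and 11.3 on TL2766+ETEC, against 32.4 on ETEC, and the TL2766+ETEC value was not well above background. Both pretreated arrays were lower than ETEC. The log2 difference was -0.92 ± 0.35 for TL2937+ETEC. Set at its array's lowest detected signal, TL2766+ETEC was 2.75-fold below ETEC and 1.46-fold below TL2937+ETEC, before scanner error. With that error, TL2937+ETEC read 17.2 ± 3.3 and TL2766+ETEC 11.3 ± 3.1. With normexp the log2 difference for TL2937+ETEC against ETEC was -0.19. The lowest detected signals were 11.6, 11.8 and 12.9 on the TL2937+ETEC, TL2766+ETEC and ETEC arrays, so CCL21 sat within 3-fold of the detection limit throughout.

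CCL19 is its neighbour on the chromosome. The CCL19 probe with the higher signal read 552 on TL2937+ETEC and 470.0 on TL2766+ETEC, against 489 on ETEC, and the probe shown above read 77.3, 82.9 and 89.1. The probes disagreed in sign for TL2937+ETEC against ETEC (0.17 ± 0.20 and -0.20 ± 0.22), each difference being smaller than its error. Between the strains they gave 0.23 ± 0.20 and -0.10 ± 0.22.

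The mucosal chemokines showed no difference that could be measured. CCL25, which directs CCR9-bearing lymphocytes to the small intestine, read 145 on TL2937+ETEC and 159.5 on TL2766+ETEC, against 155 on ETEC, all within the scanner error. CCL28, a ligand of CCR10 on plasma cells that mucosal epithelia are known to make, was not well above background on any array, at 2.61, 2.71 and 2.95. No direction can be given for it.

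The place of each member among all measured genes is shown by the histogram of differences. For TL2937+ETEC against ETEC, CCL11 ranked 9th, CCL21 16th and CCL8 43rd from the lowest of 4886 genes, and CCL3L1 ranked 322nd. These ranks pool dim and bright genes, and CCL11, CCL21 and CCL3L1 were among the dim ones. In this comparison 19.1% of the dimmer genes were at least 1.2-fold lower, against 9.3% of the brighter genes. For TL2766+ETEC against ETEC, CCL3L1 ranked 110th and CCL11 248th from the lowest of 4861 genes, while CCL4 ranked 168th and CCL5 241st from the highest. Between the strains, CCL8 ranked 13th, CCL11 40th, CCL5 75th and CCL4 100th from the lowest of 4900 genes. The members did not share one place: CCL2 and CCL25 lay in the bulk of genes each time.

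**Figure D3:**
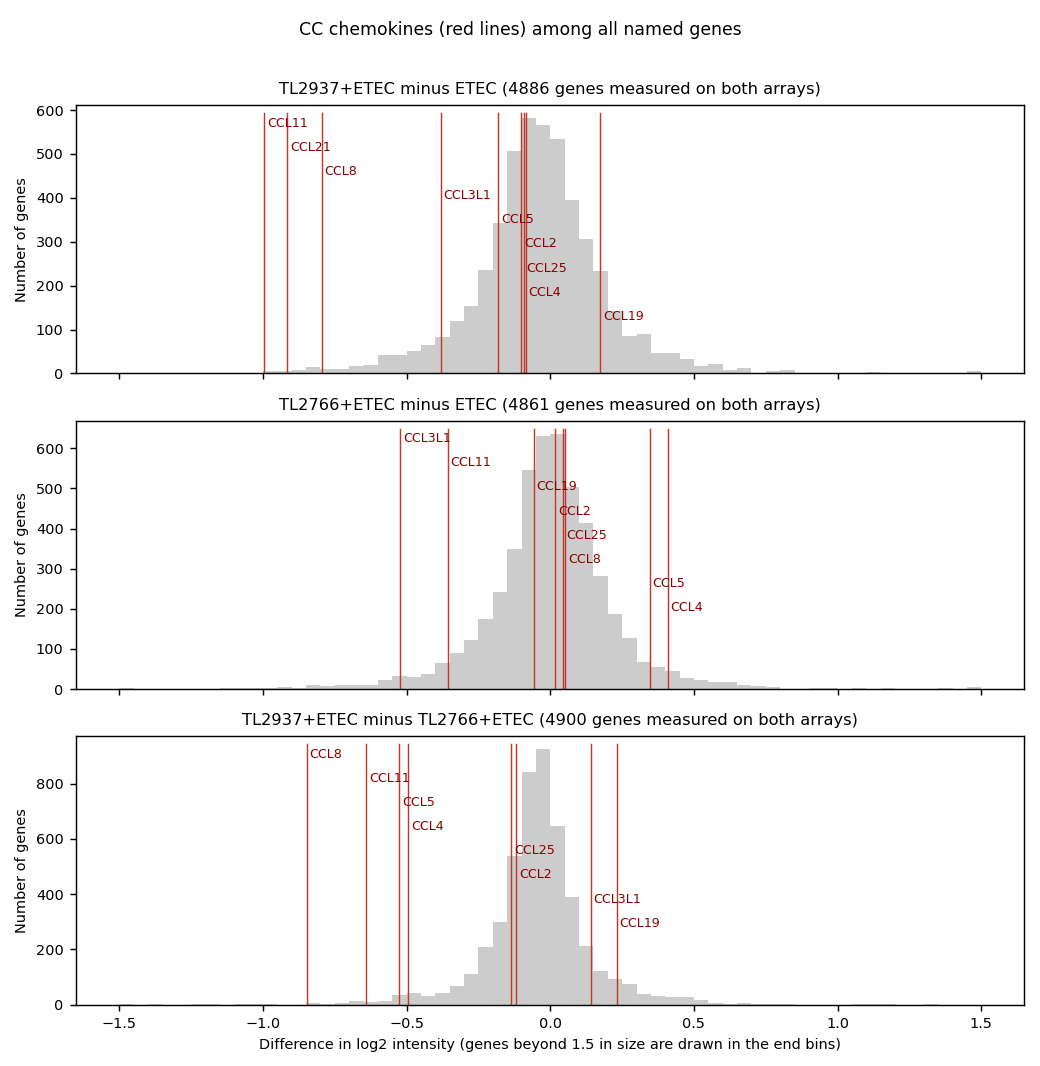
Number of named genes (vertical axis) by log2 difference in scaled intensity (horizontal axis) in each comparison, with the measured members as red lines, 1 array against 1 array. CCL11, CCL21 and CCL8 lie in the left tail for TL2937+ETEC minus ETEC, of which CCL11 and CCL21 were dim. CCL4 and CCL5 lie to the right for TL2766+ETEC minus ETEC.

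Genes with the most similar pattern over the 3 arrays were found by the distance between the 3 log2 values after each gene was centred on its mean, over 4832 genes well above background on all arrays. For CCL11 the nearest included OASL (distance 0.04), LGALS9 (0.07) and OAS1 (0.09). OASL and OAS1 are interferon-induced antiviral genes, and LGALS9 encodes galectin-9. For CCL8 they were ANKS1B (0.12), OSM (0.14), CBR2 (0.15) and OAS1 (0.20), where OSM is the cytokine oncostatin M. For CCL5 they were UPK1A (0.01), ERCC3 (0.02), IL1A (0.02) and RBP4 (0.03), of which IL1A encodes the inflammatory cytokine interleukin-1 alpha. With 3 points per gene many genes lie close by, and likeness of this kind is a description.

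The list of CC chemokine receptors and atypical receptors was mostly dim, and not every gene on it is a receptor of the members. Of 12 receptor genes on the array, 5 were measured on both arrays of each comparison. CCR1, CCR3, CCR6, CCR7, CCR9 and ACKR4 were among those not well above background on any array. None was lower and 1 was higher on TL2937+ETEC than on ETEC, and none was called on TL2766+ETEC, with median log2 differences of -0.11 and 0.01. Of all genes, 12.4% were lower and 7.29% higher on TL2937+ETEC, and 8.95% and 8.13% on TL2766+ETEC. CCR2, the receptor of CCL2 and CCL8, read 34.6 on TL2937+ETEC and 26.2 on TL2766+ETEC, against 27.4 on ETEC, a log2 difference of 0.33 for TL2937+ETEC over ETEC and 0.40 over TL2766+ETEC. These CCR2 signals were in the range of CCL21, close to the lowest detected signals. ACKR3 is an atypical scavenging receptor, counted in the list and its medians, but not an established receptor of the CC chemokines followed here. It read 3077 on TL2937+ETEC and 3706 on TL2766+ETEC, against 3688 on ETEC. The log2 difference of ACKR3 on TL2937+ETEC was -0.26 from ETEC and -0.27 from TL2766+ETEC.

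The other CC chemokines did not all follow one direction. Of 6 measured, 1 was lower and 1 higher on TL2937+ETEC than on ETEC, 1 lower and 2 higher on TL2766+ETEC than on ETEC, and 4 lower and 1 higher on TL2937+ETEC than on TL2766+ETEC. Their medians were 0.09, 0.21 and -0.30 in these comparisons, beside -0.04, 0.00 and -0.04 over all genes. Of all genes, 12.4% were lower and 7.29% higher in the first comparison, 8.95% and 8.13% in the second, and 7.24% and 4.31% in the third. CCL24, another eosinophil attractant that acts through CCR3, differed from ETEC by 0.40 on TL2937+ETEC and 0.69 on TL2766+ETEC, the opposite sign to CCL11. CCL26, also an eotaxin and added here after its values were seen, differed by -0.23 and 0.26. CCL14, a neighbour of CCL5, differed by -0.32 and 0.07. CCL20, the CCR6 ligand of intestinal epithelium, differed by 0.16 and 0.46, and CCL27, a CCR10 ligand near CCL19 and CCL21 in gene order, by 0.26 and -0.51. CCL27 read only 25.5 on TL2937+ETEC, 15.0 on TL2766+ETEC and 21.2 on ETEC, close to the lowest detected signals.

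Among 9 measured chemokines of the CXC and related families, 5 were lower and 0 higher on TL2937+ETEC than on ETEC, and 0 were called on TL2766+ETEC, while 6 were lower and 0 higher on TL2937+ETEC than on TL2766+ETEC. Over all genes, 12.4% were lower and 7.29% higher on TL2937+ETEC than on ETEC. The shares were 8.95% and 8.13% on TL2766+ETEC, and 7.24% and 4.31% for TL2937+ETEC against TL2766+ETEC. The median log2 differences of these chemokines were -0.33, -0.10 and -0.27. The interferon-induced T-cell attractants CXCL9, CXCL11 and CXCL10 differed by -0.64, -0.59 and -0.52 on TL2937+ETEC, and by -0.10, -0.05 and -0.11 on TL2766+ETEC. CXCL16 differed by -0.46 and -0.20. On these genes, as on both CCL8 probes, TL2937+ETEC was the lowest array.

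Of 19 transcription factors and kinases of chemokine induction, 4 were lower and 0 higher on TL2937+ETEC than on ETEC (12.4% and 7.29% of all genes), with a median of -0.08, and 0 were lower and 1 higher on TL2766+ETEC (8.95% and 8.13% of all genes), with a median of 0.04. The lower genes included IRF7 (-0.53), STAT2 (-0.52) and IRF8 (-0.40), all factors of the interferon response. IRF8 read only 20.2 on TL2937+ETEC and 26.7 on ETEC, close to the lowest detected signals. Other interferon-related factors of the list, IRF1 (-0.16), IRF3 (-0.12) and IRF9 (-0.08), stayed within 1.2-fold and were named after their values were seen. On TL2766+ETEC, IRF7, STAT2 and IRF8 differed by -0.04, -0.22 and -0.22, and the higher gene was CEBPB (0.38), named after its value was seen. Between the strains 4 of the 19 were lower on TL2937+ETEC and 0 higher (7.24% and 4.31% of all genes), with a median of -0.18 and IRF7 at -0.48.

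Of the enzymes and matrix partners that trim or hold chemokines, 1 of 5 was lower on each pretreated array than on ETEC and 0 were higher, with medians of -0.12 and -0.03. Of all genes, 12.4% were lower on TL2937+ETEC and 8.95% on TL2766+ETEC. DPP4, a peptidase that clips the first residues of several chemokines, read 77.1 on TL2937+ETEC and 93.1 on TL2766+ETEC, against 114 on ETEC. Its log2 differences were -0.57 and -0.29. Among 5 genes of lymphoid stroma and lymphotoxin signalling, which maintains CCL19 and CCL21 in lymphoid tissue, 1 was higher and 0 lower on each pretreated array, with medians of -0.19 and 0.00. That gene was LTB, lymphotoxin beta, at 1416 on TL2937+ETEC and 1390 on TL2766+ETEC, against 992 on ETEC, which is the opposite direction to CCL21. Of all genes, 7.29% were higher on TL2937+ETEC and 8.13% on TL2766+ETEC.

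**Figure D4:**
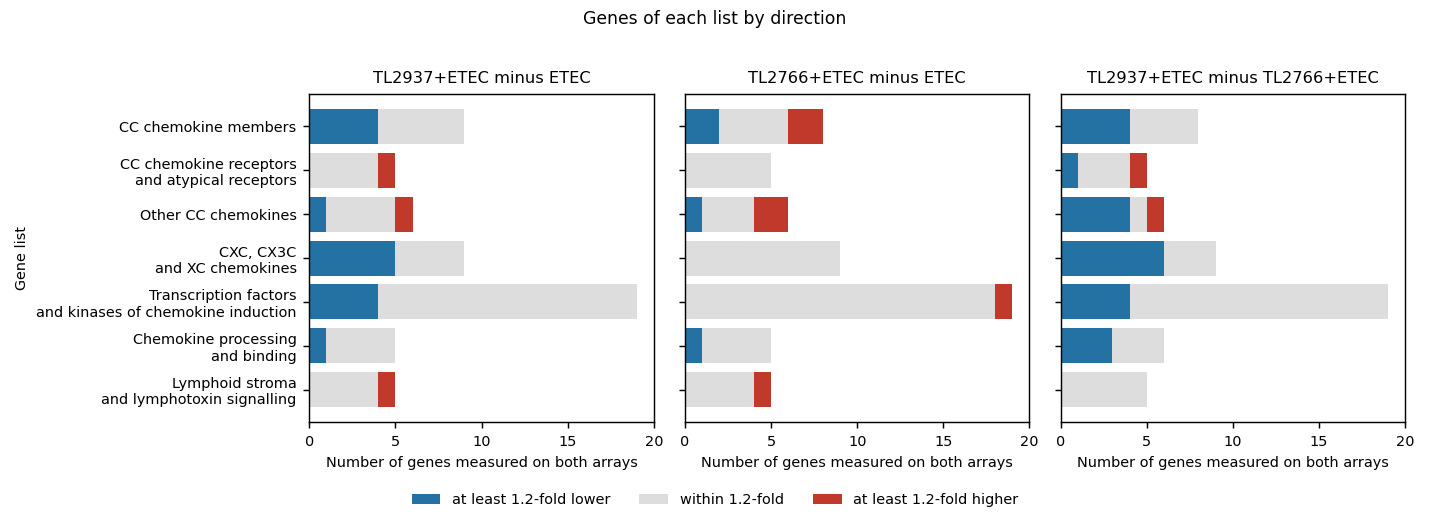
Number of genes measured on both arrays (horizontal axis) that were at least 1.2-fold lower (blue), within 1.2-fold (grey) or at least 1.2-fold higher (red), for the 10 CC chemokines and 6 related gene lists in each comparison. The CC members hold 4, 2 and 4 lower genes in the 3 panels, and the CXC list holds 5, 0 and 6.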

How the data were processed

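RNA of PIE cells, 1 replicate per group by the study's design text, was hybridised to 1-colour Agilent arrays. Per the labels, 200 ng of RNA was labelled per sample. The deposited scanner files hold spot intensities (Feature Extraction 10.7.3.1, per the file headers), already background-subtracted by the scanner software. The authors' deposited value table holds intensities within 0.496% of those. Its median was 40.9 on TL2937+ETEC, 38.8 on TL2766+ETEC and 37.0 on ETEC, so it was not centred. The genome build of the array is not given in the sources used here, so no coordinates are printed.

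Control spots and outlier spots (4 to 9 per array) were left out, replicate spots were averaged, and log2 processed signal was set against each array's 75th percentile. A symbol was given to 13704 of 43603 probes, most often through accessions in RefSeq's Sscrofa11.1 gene table, and 29899 stayed unnamed. Where an array did not measure a probe well above background, the fold was set by that array's lowest detected signal. Such a fold leaves out scanner error. Some undetected probes read above that signal, so it is not a strict bound. The fold counting was tested on simulated data made from the ETEC values, with the same noise at every intensity and no spread between cultures. That simulation checks the arithmetic and not how reliable a difference is.

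All 10 members are named with every probe. Of each related list, up to 4 genes that differed most from ETEC among those detected on all arrays are named, and for the 3 members with the largest span the 4 nearest genes. Some genes that this rule names are not reported here. Members and lists were chosen with earlier results of these data known. Alternatives covered background correction (normexp, offset 50), scaling (quantile, median, cyclic loess), the authors' table, filters, probe choice and fold threshold. Python 3.11.15, pandas 2.3.3, numpy 2.4.6, R 4.3.3 and limma 3.58.1 were used.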

Additional observations from a re-analysis of the deposited data

Results flagged for a closer look

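The signs of the brighter CCL5 probes against ETEC were opposite for the 2 strains, although a lower level after TL2937 is not shown. Probe 1 was at -0.18 on TL2937+ETEC and 0.35 on TL2766+ETEC, and probe 2 at -0.15 and 0.36, each a log2 difference larger than the median spread over repeated spots but, for TL2937+ETEC, smaller than the scanner error. Each group is 1 array, so the difference between the effects of the strains was not tested, and the third CCL5 probe was above ETEC on both arrays.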

How the results depend on the processing

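Each array stands for 1 replicate, so depth here means signal over background: CCL21, CCL28 and the dimmer CCL11 probe lie at or near it. With a normexp correction, values of CCL3L1, CCL8, CCL11 and CCL21 against ETEC on TL2937+ETEC shrink, CCL21 to -0.19. No paired analysis was possible because each group has 1 array and only the replicate number 1. A slide block could not be fitted, since 1 slide held all arrays, and no replicate could be left out. Among 228 alternative values of single members, 212 moved by no more than the spread between repeated spots and 16 moved further. Of the 16, 8 moved with normexp, 6 with the mean of a gene's probes, 1 with quantile scaling and 1 with cyclic loess. A difference that had passed 1.2-fold was reversed in 0 values. Many of the 212 were fixed in advance and say nothing of stability. The filters (25, 13 and 15 values) choose which members count and leave a member's own value unchanged. Median scaling and keeping outlier spots (25 values each) shift all members of a comparison by 1 small constant. The authors' table (25 values) nearly repeats the scanner intensities. For TL2937+ETEC against ETEC, the median of -0.18 became -0.093 among the 4 members above the median detected signal on both arrays, a filter that drops CCL8 through its own low value on TL2937+ETEC. The 4 lower members became 2 with normexp, 0 above the median signal on both arrays, 1 (CCL8) with a mean over all arrays above it, and 0 at 2-fold. For TL2766+ETEC against ETEC, the 2 lower members became 0 above the median signal by either filter and 0 at 1.5-fold and at 2-fold, and the 2 higher members became 0 at 1.5-fold and at 2-fold. Between the strains, the median of -0.32 became -0.13 with all 10 members and no background filter and -0.49 among the 5 with a mean above the median signal, the 4 lower members became 2 above the median signal on both arrays, 2 at 1.5-fold and 0 at 2-fold, and the 0 higher members became 1 without the filter. The filter on the mean was added after seeing the data. Fewer members pass a stricter filter or fold by construction. The normexp setting adds an offset of 50 to every intensity, which by construction shrinks log2 differences of dim probes. How much of the normexp shifts this makes up was not tested.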
